A study of Mus musculus with 12 samples.

Results

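Gene expression was compared between Ythdf2 knockout GC1 cells that overexpress Setdb1 (genotype label Ythdf2-koOE-setdb1) and wild-type GC1 cells (genotype label WT), with 3 libraries in each group. GC1 is an established mouse line derived from spermatogonia, the male germ line stem and progenitor cells, and every library carries the time label 24 h. Beside these 6 libraries stand 3 of the unmodified knockout (Ythdf2-ko) and 3 of the knockout with an overexpression control (Ythdf2-ko-OE-CTR), which makes 12 in all. The Setdb1 group therefore differs from wild type in the knockout, in the overexpression and in any property of the knockout line, whose code is the same in all 3 knockout groups, and these cannot be told apart in the comparison. The authors deposited FPKM values (fragment counts divided by transcript length and by the library total of mapped fragments) for 2281 genes that they had marked as significant, and the 2063 with at least 1 FPKM in at least 3 of the 12 libraries were tested. The Setdb1 transcript itself was not analysed here, and the overexpression is taken from the labels.

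YTHDF2 is a reader protein that binds N6-methyladenosine (m6A) in messenger RNA and recruits the machinery that degrades the transcript. SETDB1 is a methyltransferase that adds methyl groups to lysine 9 of histone H3, a mark of silent chromatin, and it keeps retroelements and selected genes repressed in the germ line and in embryonic cells. In the comparison a transcript that ends at the wild-type level is one whose level in knockout cells with Setdb1 matches that of unedited cells, and a transcript that lies further from it is one whose distance is larger with Setdb1 than with the control construct.

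Differences are given on the log2(FPKM + 1) scale as Setdb1 minus wild type. On this scale low genes show a smaller change than their FPKM ratio would. They come from limma-trend fitted to all 12 libraries, with Benjamini-Hochberg adjustment over the 2063 genes, and higher or lower means an adjusted p under 0.05. The labels do not say whether the libraries of a group are separate cultures, so p-values measure the spread between these libraries, which may be technical. Library sums over all 2281 deposited genes ran from 75955 to 81924 FPKM, and read depth is unknown. With RNA from whole cultures, fewer cells of a type and less RNA per cell cannot be told apart.

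Wild-type libraries 2 and 3 carried transcripts of blood cells. The 6 red cell genes in the table, of 11 in the marker list, had sums of 5.28 FPKM in wild-type library 1, 515 FPKM in library 2 and 205 FPKM in library 3, and of at most 0.657 FPKM in any Setdb1 library. The 4 neutrophil genes in the table, of 19 in the list, summed to 1.75, 25.6 and 37.3 FPKM in the wild type and to at most 0.141 FPKM with Setdb1. Unmodified knockout libraries 1 and 2 carried the same transcripts, with red cell sums of 603 and 181 FPKM, while the control libraries stayed at or under 0.762 FPKM. All 4 tested haemoglobin genes and both tested neutrophil genes were lower with Setdb1. When the fit held a term for blood-carrying libraries, Hbb-bs went from -4.92 to -0.83 and lost its call (adjusted p = 0.189 in limma), while S100a9 went from -3.36 to -1.03 and kept it (adjusted p = 0.00167). The haemoglobin genes Hba-a1 and Hba-a2 are near-identical copies, and so are Hbb-bs and Hbb-bt. Reads can be split within each pair, so their single values are uncertain.

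**Figure D1:**
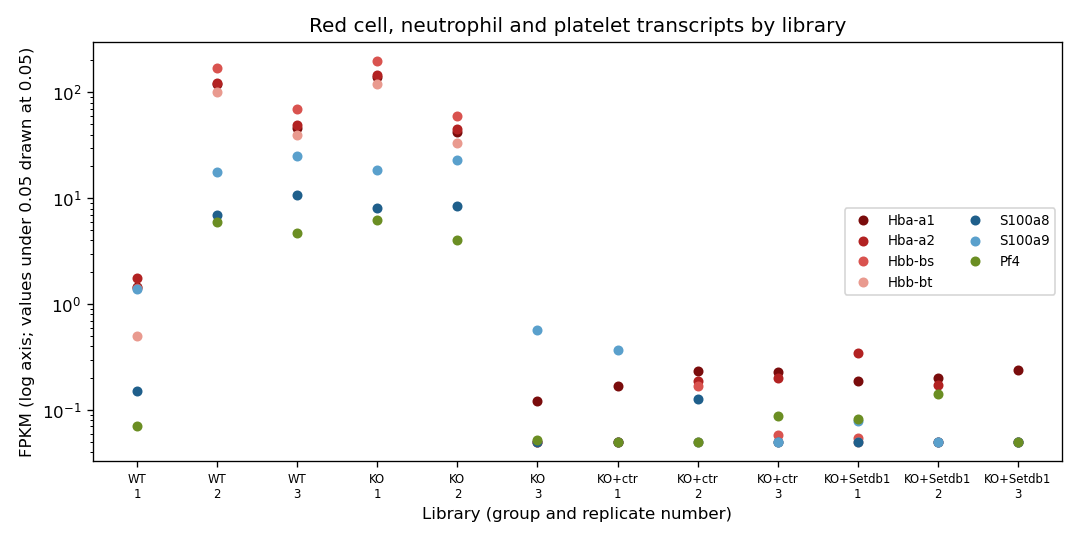
Levels of the red cell, neutrophil and platelet genes by library, in FPKM on a log axis, with 1 point per library. Wild-type libraries 2 and 3 and unmodified knockout libraries 1 and 2 stand above the rest, with mean haemoglobin levels of 128, 51.2, 150 and 45.1 FPKM.

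The targeted transcript was lower in the Setdb1 libraries and was not lost. Ythdf2 stood at 8.51, 9.33 and 9.15 FPKM in the wild-type libraries and at 4.67, 4.99 and 4.23 FPKM in the Setdb1 libraries, with means of 6.05 FPKM in the unmodified knockout and 6.14 FPKM in the control. All 3 Setdb1 libraries lay below every other library, and their difference from wild type was -0.83 (SE 0.05, adjusted p = 1.35e-07 in limma). Where in the gene the edit lies was not known here, so the transcript level does not check the edit, and it does not measure the protein.

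Germ cell identity could be checked only in part. Of 35 spermatogonial markers in the list, 9 are in the table, and they summed to between 171 and 174 FPKM in the wild-type libraries and to between 90.3 and 97.3 FPKM with Setdb1. Within these sums Cd9 alone had a mean of 84.9 FPKM in the wild type and 48.6 FPKM with Setdb1. Germ cell genes such as Ddx4 and Dazl were not analysed here. Epithelial keratin genes were among the most abundant markers: the 7 epithelial genes in the table summed to between 862 and 896 FPKM in the wild type and to between 339 and 352 FPKM with Setdb1.

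Most of the tested genes differed between the groups, in a table that holds only genes the authors had marked significant. With Setdb1, 842 genes were higher than in the wild type (40.8%) and 934 were lower (45.3%), 1776 in all (86.1%), and 287 did not pass the test. The counts of list members given below are to be read beside these shares, 40.8% higher and 45.3% lower. The libraries of the groups did not overlap for 1785 genes (86.5%). Differences were mostly small, with a median absolute value of 0.36 among the changed genes, and 22 genes were higher and 66 lower by 1 or more. The median absolute distance from wild type over all tested genes was 0.32 with Setdb1, 0.26 in the control and 0.26 in the unmodified knockout. For comparison, 77.5% of the genes were called between the control and the wild type, 77.3% between the unmodified knockout and the wild type, and 67.9% between Setdb1 and the control. These comparisons share libraries, so their values for a gene are set side by side and not tested against each other.

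**Figure D2:**
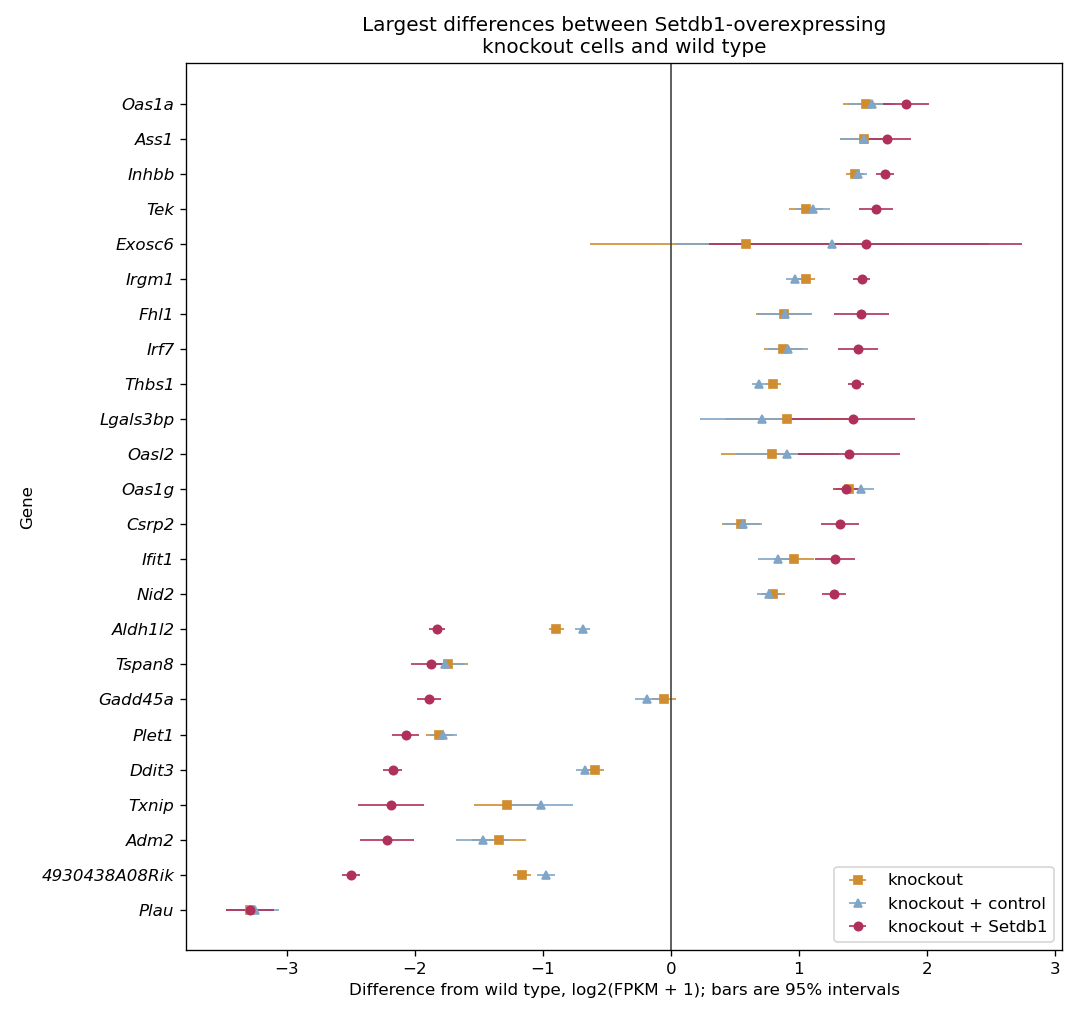
Difference from wild type on the log2(FPKM + 1) scale for the genes with the largest rises and falls in Setdb1-overexpressing knockout cells, haemoglobin and neutrophil genes left out, with points for each knockout group and bars for 95% intervals. Plau, Tspan8 and Plet1 lie far from wild type in all 3 knockout groups, while Gadd45a stands at -1.89 with Setdb1 and at -0.19 in the control.

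Genes of the integrated stress response lay below wild type with Setdb1. This pathway starts with kinases that phosphorylate the translation factor eIF2, which favours translation of the transcription factor ATF4 and the induction of genes for amino acid supply and redox balance. Of 42 genes in the list 17 were tested, and 16 of these were lower with Setdb1 and none higher, with a median of -1.16 beside -0.04 over all tested genes. The same members had a median of -0.19 in the control and -0.18 in the unmodified knockout. Against the control 16 were lower and 1 higher, where 31.8% of all genes were lower. Without the 4 libraries with blood transcripts, which leaves 1 wild-type library that is assumed to vary like the other groups, 15 were lower and the median was -0.94.

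Ddit3, which encodes the stress transcription factor CHOP, stood at 107, 104 and 107 FPKM in the wild type, at 68.5, 65.2 and 65.8 FPKM in the control and at 21.5, 23.9 and 23 FPKM with Setdb1. The 3 groups were fully separated in that order, and the difference from wild type was -2.17 (SE 0.03, adjusted p = 5.89e-12 in limma). Gadd45a, whose product slows the cell cycle after stress, had 69.7, 66.9 and 66.1 FPKM in the wild type and 18.2, 16.4 and 17.9 FPKM with Setdb1. Its control libraries, at 61.9, 58.5 and 57.1 FPKM, lay close below wild type, so the distance of -1.89 (SE 0.04, adjusted p = 6.12e-11) was almost as large against the control, at -1.70.

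Metabolic and protein folding members of the list are given by their group means. Aldh1l2, a mitochondrial folate dehydrogenase gene, had group means of 31.7 ± 0.166 FPKM in the wild type, 16.6 ± 0.26 in the unmodified knockout, 19.3 ± 0.541 in the control and 8.2 ± 0.267 with Setdb1 (SD, n = 3 each), a difference of -1.83. Mthfd2, which encodes another enzyme of that folate cycle, had 48.2 ± 0.984, 39.5 ± 0.334, 41.2 ± 0.707 and 17.5 ± 0.638 FPKM in the same groups, a difference of -1.41. Aldh18a1, which encodes the first enzyme of proline synthesis from glutamate, had 83.2 ± 1.48 FPKM in the wild type and 30 ± 0.102 FPKM with Setdb1. Between them lay the control at 66.8 ± 0.123 FPKM and the unmodified knockout at 61.7 ± 0.879 FPKM. Ero1l, an oxidase gene of protein folding in the endoplasmic reticulum, went from 53.9 ± 0.289 to 19.4 ± 0.793 FPKM. It had 47.4 ± 0.529 FPKM in the control and 37.7 ± 0.695 FPKM in the unmodified knockout.

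Slc7a11, the cystine importer gene, stood at 4.45, 4.42 and 4.23 FPKM in the wild type and at 1.25, 1.3 and 1.26 FPKM with Setdb1. Its control libraries, at 4.9, 5.03 and 4.83 FPKM, lay above wild type, so it was on opposite sides of wild type in the control (0.14) and with Setdb1 (-1.24, SE 0.03, adjusted p = 1.58e-10 in limma). Atf3, a transcription factor gene induced by stress, had 62.3 ± 0.634 FPKM in the wild type, 54.1 ± 4.87 in the control and 23.4 ± 1.2 with Setdb1. Atf4 itself was uneven, at 164, 308 and 159 FPKM in the wild type and 65.2, 140 and 76.4 FPKM with Setdb1, and its groups did not overlap (-1.16, SE 0.29, adjusted p = 0.00359). Atf5, another transcription factor gene of the list, was the member that did not pass, and it is described with the genes at the wild-type level.

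The promoters of the list were searched for TGATGNAA, a core of the element bound by ATF4 and CHOP, on both strands, from 250 bases before to 50 after the RefSeq start (GRCm38.p6). Of the 17 tested members 14 had a promoter sequence, with 15 windows among them. A member was counted when any of its windows held the motif, while the background is a share of windows. Of all 32851 windows 3.97% held it, and 2 of the 14 members did. These are shown because they are the members with a match, in capitals, at chr1:191183284-191183583 for Atf3 and chr3:50443564-50443863 for Slc7a11, both on the minus strand and printed in the direction of transcription.
Atf3: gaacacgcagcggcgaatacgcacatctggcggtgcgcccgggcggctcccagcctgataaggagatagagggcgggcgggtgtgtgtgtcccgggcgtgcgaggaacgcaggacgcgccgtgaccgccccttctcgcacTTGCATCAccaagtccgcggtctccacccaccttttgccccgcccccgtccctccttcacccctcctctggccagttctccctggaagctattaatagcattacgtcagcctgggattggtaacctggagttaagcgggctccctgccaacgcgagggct
Slc7a11: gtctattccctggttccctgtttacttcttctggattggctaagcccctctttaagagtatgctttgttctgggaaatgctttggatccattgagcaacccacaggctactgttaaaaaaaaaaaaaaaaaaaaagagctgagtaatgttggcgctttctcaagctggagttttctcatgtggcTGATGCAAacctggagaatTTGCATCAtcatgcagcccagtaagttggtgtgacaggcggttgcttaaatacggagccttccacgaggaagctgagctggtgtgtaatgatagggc
In Slc7a11 the motif occurs at 2 places, once on each strand. A match is a description of these letters and not a binding site.

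**Figure D3:**
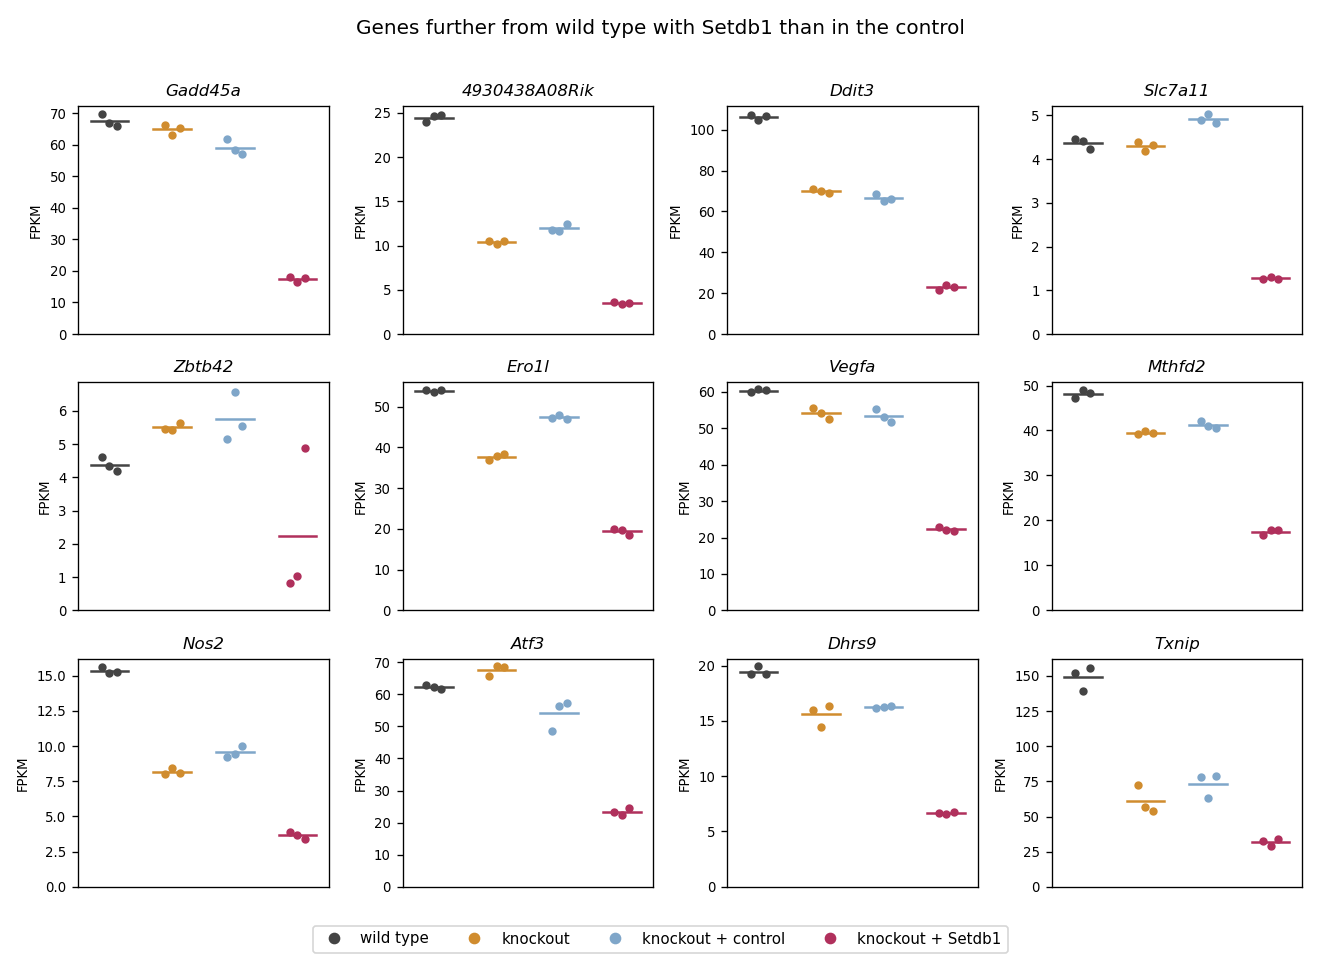
FPKM by library for the 12 genes that lie further from wild type with Setdb1 than in the control by the largest margin, with 1 point per library and a line at each group mean. In 11 of the 12 panels the 3 Setdb1 libraries lie below every other library, and in Zbtb42 1 Setdb1 library lies among the other groups.

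Some genes of the hypoxia and redox lists lay far below wild type. Of 13 tested hypoxia and glycolysis genes 9 were lower and 4 higher, with a median of -0.30 beside 0.09 in the control. With the term for blood-carrying libraries 6 were lower and 3 higher. Vegfa, the main angiogenic factor gene, stood at 60, 60.6 and 60.5 FPKM in the wild type and at 22.9, 22 and 21.7 FPKM with Setdb1, a difference of -1.40 (SE 0.03, adjusted p = 4.4e-11 in limma). Ndrg1, a gene induced by low oxygen, had 173 ± 1.7 FPKM in the wild type, 159 ± 1.04 in the control and 71.1 ± 0.864 with Setdb1. The glycolytic aldolase gene Aldoc went from 6.52 ± 0.0434 to 3.97 ± 0.157 FPKM, with 6.39 ± 0.143 FPKM in the control. The members that were higher than wild type were Pdk1 (0.36), Plod2 (0.14), Egln1 (0.11) and P4ha2 (0.11), and each stood further above wild type in the control, at 0.58, 0.26, 0.40 and 0.48.

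Of 20 tested redox genes 10 were lower and 8 higher, shares close to the 45.3% and 40.8% over all genes, and the median was -0.17. The list as a whole therefore shows no result, and its members are described singly. Txnip, which encodes an inhibitor of thioredoxin, had 152, 139 and 156 FPKM in the wild type, 78, 63.5 and 78.6 FPKM in the control and 32.8, 29.2 and 34 FPKM with Setdb1, and the groups did not overlap (-2.19, SE 0.12, adjusted p = 3.78e-08 in limma). Hmox1, the heme oxygenase gene, went from 118 ± 0.334 to 50.3 ± 0.536 FPKM, and Sqstm1, which encodes the autophagy receptor p62, from 372 ± 23.6 to 173 ± 4.26 FPKM. In the control Hmox1 stood at 109 ± 1.07 and Sqstm1 at 349 ± 2.88 FPKM, so that most of the distance of both lay between the control and Setdb1. Keap1, which encodes the adaptor that marks the antioxidant factor NRF2 for degradation, was higher with Setdb1 (0.56) and stood at 0.10 in the control.

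Other genes that lay further below wild type than the control did not belong to these lists. Nos2, the inducible nitric oxide synthase gene, stood at 15.6, 15.2 and 15.3 FPKM in the wild type, 9.19, 9.46 and 9.99 FPKM in the control and 3.91, 3.7 and 3.42 FPKM with Setdb1, a difference of -1.81. Dhrs9, a retinol dehydrogenase gene, had 19.5 ± 0.419, 16.3 ± 0.0572 and 6.67 ± 0.0818 FPKM in these groups. The gene named 4930438A08Rik had 24.4 ± 0.425, 12 ± 0.411 and 3.5 ± 0.123 FPKM, and its difference of -2.50 (SE 0.03, adjusted p = 1.15e-12 in limma) was the largest fall after that of Plau among genes outside the blood lists. Zbtb42, a zinc finger gene, was uneven with Setdb1, at 0.832, 1.03 and 4.89 FPKM beside 4.61, 4.33 and 4.18 FPKM in the wild type, and the groups overlapped. Its difference was -0.94 (adjusted p = 0.0256), -1.48 without Setdb1 library 3, and -0.64 (adjusted p = 0.106) without Setdb1 library 1.

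Over all tested genes, 899 (43.6%) lay further from wild type with Setdb1 than in the control, 456 of them above wild type (22.1%) and 443 below it (21.5%). The control was already off wild type on the same side for 491, did not pass for 328 and lay on the other side for 80. The distance that Setdb1 added to the control reached 1 or more for 21 genes below wild type and for 1 above it. The gene above was Ifi27l2a, an interferon-induced gene, at 5.03, 4.65 and 5.07 FPKM in the wild type and 10.3, 13.7 and 11.9 FPKM with Setdb1, where the control mean was 5.04 ± 0.695 FPKM (1.12 against wild type, adjusted p = 0.000142 in limma).

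Most of the tested interferon-stimulated genes lay above wild type with Setdb1. These genes are switched on when cells sense viral or other foreign nucleic acid, through STAT and IRF transcription factors, and many encode sensors and effectors of antiviral defence. Of 56 genes in the list 23 were tested, and 19 were higher and 4 lower with Setdb1, with a median of 0.79. The median was 0.54 in the control, where 18 were higher and 3 lower, beside 36.3% and 41.2% of all genes, and 0.52 in the unmodified knockout. Against the control 14 were higher and 3 lower, where 36.1% and 31.8% of all genes were. The counts against wild type were also 19 and 4 without the libraries with blood transcripts.

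Among sensors and effectors, Oas1a, an oligoadenylate synthetase gene, stood at 2.23, 1.79 and 1.79 FPKM in the wild type, 7.84, 7.74 and 7.54 FPKM in the control and 9.62, 9.2 and 9.53 FPKM with Setdb1. All knockout libraries with a construct lay above all wild-type libraries, and the difference of 1.84 (SE 0.08, adjusted p = 9.9e-09 in limma) was the largest rise of any tested gene. Its close paralog Oas1g had 0.977 ± 0.0442 FPKM in the wild type, 4.54 ± 0.252 in the control and 4.12 ± 0.277 with Setdb1, and reads that the paralogs share cannot be resolved in FPKM values. Irgm1, an immunity GTPase gene, stood at 4.64, 4.52 and 4.42 FPKM in the wild type, 9.98, 9.53 and 9.89 FPKM in the control and 14.1, 14.9 and 14.6 FPKM with Setdb1, and the groups were fully separated (1.49, SE 0.03, adjusted p = 3.99e-11). Ifit1, which encodes a protein that binds foreign RNA, had means of 2.51, 5.23 and 7.5 FPKM in these groups. Oasl2 was uneven with Setdb1, at 9.73, 9.34 and 5.55 FPKM, and its lowest library stood within the range of the control.

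Among the transcription factors of the pathway, Irf7 stood at 2.52, 2.75 and 2.98 FPKM in the wild type and at 9.39, 9.32 and 9.25 FPKM with Setdb1, with 6.09 ± 0.712 FPKM in the control (1.46, SE 0.07, adjusted p = 1.74e-08 in limma). Irf9, which encodes a part of the complex that binds interferon response elements, was higher by 1.05. The 4 members that were lower were the transcription factor gene Irf1 (-1.01), the chemokine gene Cxcl10 (-0.84), the proteasome subunit gene Psmb8 (-0.50) and the exonuclease gene Isg20 (-0.46). In the control these stood at -0.25, -0.39, -0.75 and -0.28.

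The promoters of the interferon list were searched in the same way for GAAA, any 2 bases and GAAA, a core of the interferon response element. The 19 members with a promoter sequence had 25 windows, and a member was again counted when any of its windows matched. Of all 32851 windows 3.44% held the motif. Of the 19 members 10 held it, which were Cxcl10, Ddx58, Eif2ak2, Ifih1, Ifit1, Irgm1, Oas1a, Oas1g, Oas3 and Stat2. Cxcl10 is among them and was lower than wild type. The promoters of the 2 matching members with the largest rises are shown, at chr5:120907476-120907775 for Oas1a and chr11:48871371-48871670 for Irgm1, both on the minus strand, from RefSeq (GRCm38.p6), with the motif in capitals.
Oas1a: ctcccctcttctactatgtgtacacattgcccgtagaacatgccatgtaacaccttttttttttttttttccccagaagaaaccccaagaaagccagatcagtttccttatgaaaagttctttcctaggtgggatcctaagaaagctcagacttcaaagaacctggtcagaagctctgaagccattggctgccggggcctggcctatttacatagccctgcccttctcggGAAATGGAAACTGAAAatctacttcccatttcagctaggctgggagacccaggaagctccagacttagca
Irgm1: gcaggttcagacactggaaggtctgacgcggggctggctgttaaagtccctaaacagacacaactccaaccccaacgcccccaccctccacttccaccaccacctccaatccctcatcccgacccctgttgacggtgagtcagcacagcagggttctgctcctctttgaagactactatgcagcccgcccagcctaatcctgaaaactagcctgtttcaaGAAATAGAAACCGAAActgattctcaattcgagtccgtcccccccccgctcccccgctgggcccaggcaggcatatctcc
In both promoters 2 matches overlap, so that GAAA occurs 3 times with 2 bases between. A match is again a description only.

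**Figure D4:**
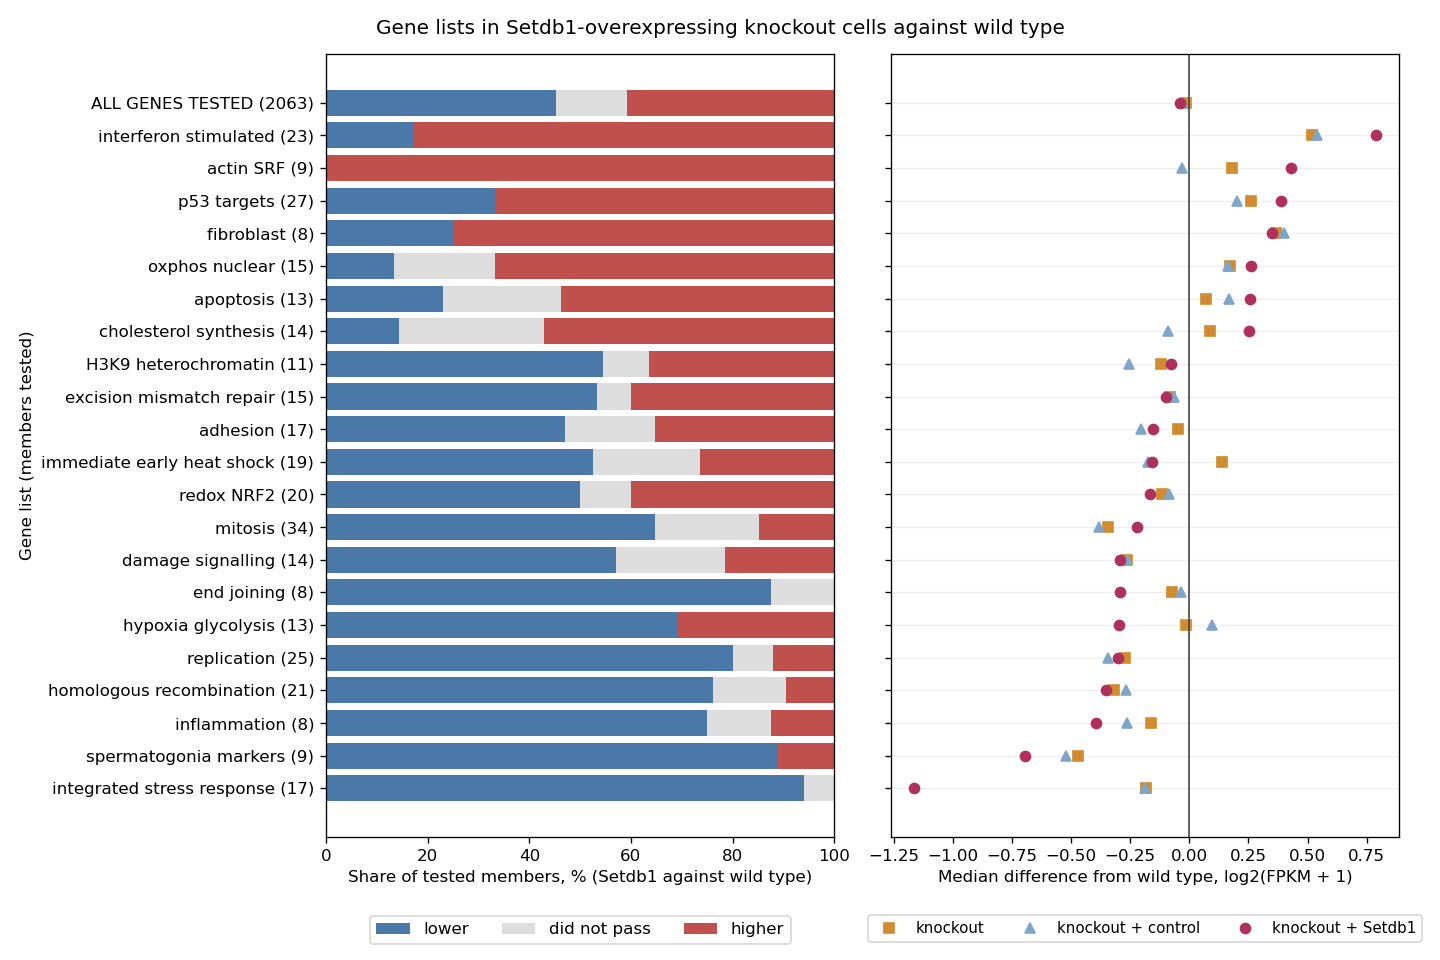
Left, share of the tested members of each gene list that were lower, did not pass or were higher in Setdb1-overexpressing knockout cells than in wild type; right, median difference from wild type on the log2(FPKM + 1) scale in each knockout group. The integrated stress response list stands at -1.16 with Setdb1 and at -0.19 in the control, and the interferon list at 0.79 and 0.54.

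Of 27 tested p53 target genes, 18 were higher than wild type and 9 lower, beside 40.8% and 45.3% of all tested genes. The median of the 27 was 0.39, beside 0.20 in the control and 0.26 in the unmodified knockout. Eda2r, a receptor gene of the TNF receptor family, was higher by 1.26, Ccng1, a cyclin gene, by 1.09 and the carbonyl reductase gene Dcxr by 0.94, and in the control these stood at 0.96, 0.60 and 0.66. Mdm2, which encodes the ligase that degrades p53, was higher by 0.50, and the cell cycle inhibitor gene Cdkn1a by 0.26, with 0.11 and -0.00 in the control. Bax, an activator of apoptosis, was higher by 0.54, and stood at 0.38 in the control and 0.47 in the unmodified knockout. The members that were lower were led by Gadd45a and by the polo-like kinase genes Plk3 (-0.88) and Plk2 (-0.74), and Sesn2 (-0.63) and Gadd45a are shared with the integrated stress response list.

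Actin genes lay above wild type with Setdb1, while their median lay close to it in the control. Actin and its partner proteins form the contractile and adhesive cytoskeleton, and many of their genes are targets of the transcription factor SRF. All 9 tested members of 25 in the list were higher than wild type, with a median of 0.43, beside -0.03 in the control and 0.18 in the unmodified knockout. In the control 3 were higher, with Csrp2 (0.57) among them, and 1 was lower, beside 36.3% and 41.2% of all tested genes. In the unmodified knockout 5 were higher and 0 lower, beside 779 and 815 of all 2063 tested genes. Csrp2, a LIM domain gene, stood at 6.41, 5.44 and 5.66 FPKM in the wild type, 9.22, 9.11 and 8.98 FPKM in the control and 14.7, 16.2 and 17.3 FPKM with Setdb1, and the groups did not overlap (1.32, SE 0.07, adjusted p = 2.72e-08 in limma). Actb, which encodes beta actin, had 332 ± 4.3 FPKM in the wild type, 421 ± 15.7 in the unmodified knockout, 319 ± 42.3 in the control and 514 ± 45.1 with Setdb1. Actn1, the crosslinker alpha-actinin gene, went from 59 ± 0.723 to 84.7 ± 3.17 FPKM, with 65.8 ± 2.7 FPKM in the control. For Vcl, the vinculin gene, the groups overlapped (0.39, SE 0.16, adjusted p = 0.0412). Without the libraries with blood transcripts 8 of the 9 were higher.

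Most tested genes of cholesterol synthesis also lay above wild type with Setdb1. Of 14 tested members 8 were higher and 2 lower, beside 40.8% and 45.3% of all tested genes. The median of the 14 was 0.25. In the control 1 was higher, 6 were lower and 7 did not pass, with a median of -0.09. Over all tested genes 36.3% were higher and 41.2% lower in the control. In the unmodified knockout 7 were higher and 2 lower, with a median of 0.09, beside 779 higher and 815 lower of all 2063 tested genes. Dhcr7, a reductase gene of the last steps, stood at 4.96, 5.16 and 5.56 FPKM in the wild type, 6.41, 6.94 and 6.53 FPKM in the control and 9.2, 9.2 and 9.36 FPKM with Setdb1. These groups were fully separated (0.72, SE 0.04, adjusted p = 6.31e-08 in limma). The control and the unmodified knockout also lay above wild type (0.29 and 0.41). Nsdhl, a sterol dehydrogenase gene, went from 11.8 ± 0.49 to 17.8 ± 0.863 FPKM. It stood at 0.07 in the control and 0.28 in the unmodified knockout. The epoxidase gene Sqle, at -0.00, and Srebf2, the pathway's transcription factor gene, at -0.07, did not pass, and both stood below wild type in the control, at -0.23 and -0.30.

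Several of the largest distances were present in all 3 knockout groups. Plau, which encodes urokinase plasminogen activator, stood at 10.4, 10.1 and 10.2 FPKM in the wild type and at 0.0847, 0.2 and 0.167 FPKM with Setdb1, and its control mean was 0.188 ± 0.13 FPKM. It reached 1 FPKM in the wild-type libraries alone and entered the test only through them, so its difference of -3.29 is given as a description. Tspan8, a tetraspanin gene of the spermatogonial marker list, had 20.5 ± 0.744 FPKM in the wild type, 5.35 ± 0.45 in the control and 4.88 ± 0.512 with Setdb1. Neither Plau nor Tspan8 passed between Setdb1 and the control (adjusted p = 0.676 and 0.17). Plet1, a surface protein gene of epithelial progenitors, had 20.3 ± 0.441, 5.2 ± 0.172 and 4.06 ± 0.17 FPKM in the same groups. Adm2, which encodes a peptide hormone of the calcitonin family, had 5.6 ± 0.424, 1.38 ± 0.178 and 0.417 ± 0.133 FPKM. Plet1 and Adm2 lay further from wild type with Setdb1 than in the control, with differences from the control of -0.29 and -0.75.

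Among the genes above wild type in all 3 knockout groups, Ass1, an enzyme gene of arginine synthesis, stood at 13.5, 15.2 and 16.2 FPKM in the wild type, 45.1, 39.2 and 49 FPKM in the control and 53.2, 50.9 and 47.3 FPKM with Setdb1. The construct groups overlapped (adjusted p = 0.073 between them) and both lay above wild type, with a difference of 1.69 for Setdb1. Inhbb, which encodes an activin and inhibin subunit, had 3.27 ± 0.0637, 10.8 ± 0.38 and 12.6 ± 0.374 FPKM in the same groups. Tek, the angiopoietin receptor gene, rose from a low level, with 0.415 ± 0.0245 FPKM in the wild type, 2.05 ± 0.0933 in the control and 3.3 ± 0.0856 with Setdb1. Inhbb and Tek lay further above wild type with Setdb1 than in the control, by 0.21 and 0.50. Exosc6, an RNA exosome subunit gene, passed against wild type with Setdb1 only. It did not pass in the control (1.26, adjusted p = 0.0571 in limma) or in the unmodified knockout (0.59, adjusted p = 0.345). Exosc6 was uneven in the wild type, at 10.2, 1.39 and 3.48 FPKM beside 13.3, 11.1 and 15.4 FPKM with Setdb1. Its difference of 1.52 (adjusted p = 0.0241) was 0.9997 (adjusted p = 0.0991) without wild-type library 2 and 0.34 (adjusted p = 0.0786) without the libraries with blood transcripts.

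Markers of cell identity differed widely between the knockout groups and the wild type. Of 6 tested epithelial genes 5 were lower with Setdb1 and 1 higher, with a median of -1.29 beside -1.24 in the control. Krt19, the most abundant of them, stood at 683, 702 and 692 FPKM in the wild type, had a control mean of 307 ± 7.75 FPKM, and stood at 260, 268 and 257 FPKM with Setdb1 (-1.40, SE 0.02, adjusted p = 7.47e-12 in limma). Elf3, an epithelial transcription factor gene, went from 3.71 ± 0.0738 to 0.757 ± 0.156 FPKM, with 0.946 ± 0.137 FPKM in the control. Krt8 was nearer to wild type with Setdb1, at 2.42 ± 0.242 FPKM beside 1.35 ± 0.111 in the control and 6.69 ± 0.136 in the wild type. The member that was higher was Krt6a, at 3.85, 4.82 and 4.23 FPKM in the wild type, 1.3 ± 0.0289 FPKM in the control and 5.15, 5.42 and 4.94 FPKM with Setdb1, so it crossed from below wild type to above it (0.22, adjusted p = 0.00664).

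Of 9 tested spermatogonial markers 8 were lower and 1 higher, with a median of -0.70 beside -0.52 in the control. Of the 9, 5 lay further below wild type than the control, beside 21.5% of all tested genes. Without the libraries with blood transcripts 8 were lower, none was higher and the median was -0.45. Gdnf, a list member, encodes a growth factor for spermatogonial stem cells that Sertoli cells make in the testis, so it does not mark germ cells themselves. Gdnf had 24.1 ± 0.889 FPKM in the wild type, 12.8 ± 0.271 in the control and 8.39 ± 0.323 with Setdb1. Etv5, a transcription factor gene of stem cell renewal, went from 3.53 ± 0.313 to 1.6 ± 0.0302 FPKM. Its means were 2.29 FPKM in the control and 2.27 in the unmodified knockout. Cd9, a surface tetraspanin gene, went from 84.9 ± 0.422 to 48.6 ± 3.66 FPKM. Its means were 56.2 FPKM in the control and 49.4 in the unmodified knockout, so most of its distance was present without Setdb1 overexpression. Of 8 tested fibroblast genes 6 were higher and 2 lower, with a median of 0.35 beside 0.40 in the control. Thbs1, which encodes the matrix protein thrombospondin 1, had 5.3 ± 0.0877 FPKM in the wild type, 9.18 ± 0.231 in the control and 16.2 ± 0.336 with Setdb1, and Fstl1, a secreted follistatin-like gene, 94.7 ± 1.83, 155 ± 0.823 and 190 ± 1.55 FPKM. Pdgfra, the platelet-derived growth factor receptor gene that marks fibroblasts, was lower (-0.36).

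Genes that ended at the wild-type level were defined by a 95% interval of the difference that lay within 0.25 of 0. With Setdb1 this held for 349 genes (16.9%), of which 193 still passed the test with a small difference and 156 did not pass. Another 131 genes did not pass but had an interval wider than that margin, so a level equal to wild type is not shown for them. In the control 321 genes were off wild type by at least 0.5, 124 above and 197 below. With Setdb1, 109 of these were nearer to wild type by the test against the control, 77 were further away, and 135 did not pass, and 295 of the 321 were still called against wild type. In all, 11 genes met the full rule for a gene that moved to the wild-type level, 9 from below and 2 from above. This small count depends on single libraries: it was 7 without Setdb1 library 3 and 19 without control library 1.

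Among the 11, genes of aldehyde and oxidant metabolism came from below. Aldh3a1, an aldehyde dehydrogenase gene, stood at 14.6, 15.4 and 16.6 FPKM in the wild type, 7.22, 8.41 and 8.03 FPKM in the control and 13.9, 14.9 and 15.5 FPKM with Setdb1. The Setdb1 and wild-type libraries overlapped and the control libraries lay below both, with a 95% interval of -0.21 to 0.08 for Setdb1 minus wild type. Aldh1a1, a retinaldehyde dehydrogenase gene, had means of 3.02, 1.8 and 3.09 FPKM in the wild type, the control and the Setdb1 group, Nqo1, a quinone reductase gene, 19.6, 13.4 and 17.8 FPKM, and Sod3, the extracellular superoxide dismutase gene, 5.75, 3.72 and 6.47 FPKM. The unmodified knockout stood near the control for these, at 7.86 FPKM for Aldh3a1, 1.79 for Aldh1a1, 13 for Nqo1 and 3.91 for Sod3.

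Cell division genes also came from below. Anln, which encodes the contractile ring protein anillin, stood at 24.2, 24.2 and 25.1 FPKM in the wild type, 15.1, 14.7 and 14.6 FPKM in the control and 21.9, 21.7 and 22 FPKM with Setdb1. It ended within the margin but below every wild-type library (-0.16, interval -0.22 to -0.09, adjusted p = 0.000716 in limma). Incenp, a subunit of the chromosomal passenger complex, had 26.1 ± 0.37 FPKM in the wild type, 17.5 ± 0.977 in the control and 24.6 ± 1.2 with Setdb1, and did not pass against wild type (adjusted p = 0.128). Ezr, which encodes the membrane to actin linker ezrin, had 376 ± 4.3, 262 ± 1.94 and 353 ± 1.18 FPKM, and its small difference of -0.09 turned to 0.075 with quantile normalization. Creb3l2, a membrane-bound transcription factor gene, had 20.2, 13.6 and 18.8 FPKM. Taf4, a subunit gene of the general transcription factor TFIID, had 12.7 FPKM in the wild type and in the unmodified knockout, 7.85 in the control and 11.2 with Setdb1, so it was low in the control alone.

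Both genes that came from above encode transcription factors. Nr1d1, a repressor of the circadian clock, stood at 13.2, 12.4 and 12.6 FPKM in the wild type, 22, 22.6 and 22.7 FPKM in the control and 14.4, 14.6 and 14.4 FPKM with Setdb1, with a small remaining difference of 0.17 (interval 0.11 to 0.23). Atf5, the stress response member that did not pass, stood at 39, 39.7 and 39.8 FPKM in the wild type, 63.4, 65.5 and 63.3 FPKM in the control and 37.3, 38.7 and 40.4 FPKM with Setdb1, and its Setdb1 and wild-type libraries overlapped (interval -0.09 to 0.04). Nr1d2, the paralog of Nr1d1, went past the wild-type level, with 11.2 ± 0.176 FPKM in the wild type, 15.4 ± 0.474 in the control and 8.22 ± 0.457 with Setdb1. It is 1 of 141 genes that passed on opposite sides of wild type in the control and with Setdb1, and no gene did so by at least 0.5 on both sides.

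**Figure D5:**
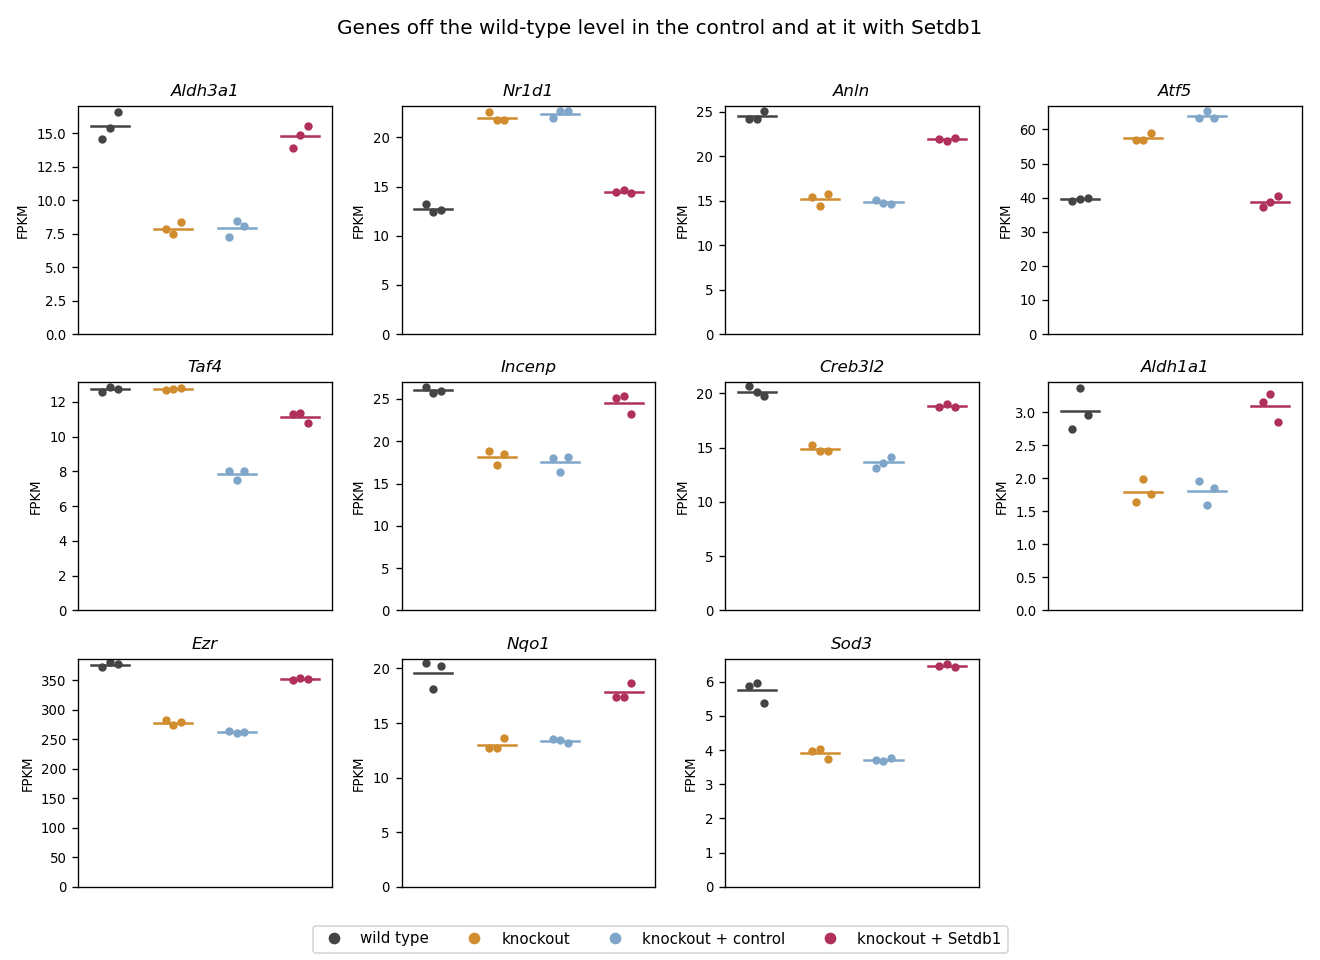
FPKM by library for the 11 genes that moved to the wild-type level with Setdb1, with 1 point per library and a line at each group mean. The control libraries stand apart from wild type in every panel, below it in 9 and above it in Atf5 and Nr1d1, and the Setdb1 libraries stand near wild type.

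Mitosis genes as a group stood nearer to wild type with Setdb1 than in the control. Of 34 tested members 22 were lower than wild type and 5 higher, with a median of -0.22, while in the control 33 were lower and none higher, with a median of -0.38. Over all tested genes 45.3% were lower and 40.8% higher with Setdb1, and 41.2% and 36.3% in the control. Against the control 26 of the 34 were higher with Setdb1 and 1 lower, beside 36.1% and 31.8% of all tested genes. At the wild-type level were 11 of the 34, beside 16.9% of all tested genes, and this count was 7 with the term for blood-carrying libraries and 5 when these were left out. Kif23, a motor gene of cytokinesis, stood at 3.98, 4.59 and 4.66 FPKM in the wild type, 3.15 ± 0.113 FPKM in the control and 4.17, 4.38 and 4.43 FPKM with Setdb1. Mki67, the proliferation antigen gene, and Plk1, a mitotic kinase gene, went past wild type, with 22.9 ± 0.487 and 23 ± 0.338 FPKM in the wild type, 19.3 ± 0.608 and 18.8 ± 0.466 in the control and 31.4 ± 0.949 and 29.5 ± 0.0705 with Setdb1. Ndc80, a kinetochore gene, went further below wild type, from 9.4 ± 0.4 FPKM to 5.79 ± 0.156 in the control and 4.56 ± 0.258 with Setdb1. Kif11, the spindle motor gene, had 11.8 ± 0.26 FPKM in the control and 12.3 ± 0.0995 with Setdb1, both below the 19.2 ± 0.391 of the wild type.

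Replication genes moved in both directions against the control, with 10 of 25 higher and 7 lower, beside 36.1% and 31.8% of all tested genes. Of 25 tested members 20 were lower than wild type and 3 higher, beside 45.3% and 40.8% of all tested genes. The median of the 25 was -0.30. In the control 23 were lower and none higher, beside 41.2% and 36.3% of all tested genes, with a median of -0.34. Mcm3, a subunit gene of the replicative helicase, had 83.8 ± 5.63 FPKM in the wild type, 59.1 ± 6.03 in the control and 48.7 ± 0.344 with Setdb1, and Cdt1, a licensing factor gene, 25.5 ± 1.09, 19.9 ± 1.35 and 15.3 ± 1.06 FPKM. The ribonucleotide reductase gene Rrm1 was higher than wild type (0.31) and stood at -0.06 in the control. Cdc7, a kinase gene of origin firing, was also higher, at 3.73, 6.93 and 6.87 FPKM in the wild type and 9.06, 9.63 and 7.85 FPKM with Setdb1, and its difference of 0.56 was 0.31 (adjusted p = 0.0573) without wild-type library 1.

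The title of the series places its question in the repair of DNA damage. Homologous recombination copies an intact sister sequence into a break, while non-homologous end joining seals the ends directly. Of 8 tested end joining genes 7 were lower than wild type and none higher, beside 45.3% and 40.8% of all tested genes. The median of the 8 was -0.29. In the control 3 of the 8 were lower and 1 higher, beside 41.2% and 36.3% of all tested genes, with a median of -0.04. With Setdb1 6 of the 8 lay further below wild type than in the control, beside 21.5% of all tested genes. Xrcc6, which encodes the Ku70 subunit of the complex that binds broken ends, stood at 20.5, 21 and 21.7 FPKM in the wild type, 20.5 ± 0.29 FPKM in the control and 14.8, 15.6 and 15 FPKM with Setdb1 (-0.45, SE 0.03, adjusted p = 2.58e-07 in limma). Aplf, a scaffold gene of end joining, had 3.25 ± 0.0708 FPKM in the wild type, 2.41 ± 0.217 in the control and 2.17 ± 0.0989 with Setdb1. Mad2l2, a subunit gene of the shieldin complex, had 11.1 ± 0.6, 9.42 ± 0.295 and 8.16 ± 0.125 FPKM, and Rif1, which limits resection of broken ends, 7.04 ± 0.192, 6.41 ± 0.179 and 5.53 ± 0.361 FPKM. Prkdc, the DNA-dependent kinase gene, was lower by a smaller amount (-0.25).

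Of 21 tested genes of homologous recombination 16 were lower than wild type and 2 higher with Setdb1, as were 16 and 2 in the control, with medians of -0.35 and -0.27. Over all tested genes 45.3% were lower and 40.8% higher with Setdb1, and 41.2% and 36.3% in the control. Fancd2, a Fanconi anaemia gene, had 5.25 ± 0.186 FPKM in the wild type, 3.71 ± 0.0767 in the control and 3.11 ± 0.123 with Setdb1. Bard1, the partner of BRCA1, had 2.93 ± 0.135, 1.75 ± 0.0175 and 1.71 ± 0.0328 FPKM, so its distance was already present in the control. Mcm8, a helicase gene of recombination, lay near wild type in the control, at 8.34 ± 0.473 beside 8.65 ± 0.387 FPKM, and stood at 5.83 ± 0.107 FPKM with Setdb1. Polq, a polymerase gene of a mutagenic end joining route, was nearer to wild type with Setdb1, at 2.24 ± 0.229 FPKM beside 1.58 ± 0.091 in the control and 3.25 ± 0.067 in the wild type. Rpa1, which encodes a single-strand binding protein, was uneven in the wild type, at 32, 48.3 and 46.3 FPKM beside 24.1, 23.7 and 24.4 FPKM with Setdb1. Its difference of -0.76 was -0.40 without the libraries with blood transcripts. In the list of damage signalling 8 of 14 were lower and 3 higher, with the checkpoint kinase gene Chek1 at -0.60 and the ubiquitin ligase gene Rnf169 at 0.66. Topbp1, a checkpoint activator gene, was at the wild-type level, with 23.3 ± 0.332 FPKM beside 23.4 ± 0.225 in the wild type and 19.6 ± 0.494 in the control.

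Genes of the marks that Setdb1 and Ythdf2 act on were measured in small number. Of 11 tested genes of H3K9 methylation and heterochromatin 6 were lower than wild type and 4 higher, with a median of -0.08 beside -0.26 in the control. These shares of 54.5% and 36.4% lie near the 45.3% and 40.8% over all tested genes, so the members are described singly. Trim28, which encodes the corepressor KAP1 that recruits SETDB1, stood at 45.9, 47.6 and 47.6 FPKM in the wild type, 54.7 ± 0.132 FPKM in the control and 65.4, 64.5 and 63.4 FPKM with Setdb1 (0.45, SE 0.02, adjusted p = 5.4e-08 in limma). The other H3K9 methyltransferase genes tested were slightly higher, Suv39h1 by 0.20 and Ehmt2 by 0.15, and stood at -0.16 and -0.09 in the control. The H3K9 demethylase gene Kdm4a was lower (-0.37) and stood at 0.04 in the control. Hells, a chromatin remodeller gene, had a difference of -0.62 and stood at -0.57 in both the control and the unmodified knockout. It did not pass between Setdb1 and the control (adjusted p = 0.151 in limma). Uhrf1, which directs maintenance of DNA methylation, had a difference of -0.52.

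Of 6 tested genes of the m6A machinery 3 were higher and 1 lower. The writer complex genes Virma, Zc3h13 and Rbm15b were higher by 0.44, 0.28 and 0.25, and the member that was lower was Ythdf2. Virma stood at 13.7, 13.5 and 13.9 FPKM in the wild type and at 19.2, 18.9 and 18.9 FPKM with Setdb1, with 17.4 ± 0.133 FPKM in the control. The methyltransferase gene Mettl3 stood at -0.11 and the adaptor gene Wtap at -0.28 (adjusted p = 0.0509 in limma), and neither passed. Wtap passed when single libraries were left out, at -0.40 (adjusted p = 0.0105) without Setdb1 library 3, -0.34 (0.0474) without wild-type library 1 and -0.35 (0.0351) without wild-type library 3, and its adjusted p ranged up to 0.267 under the other alternatives.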

How the data were processed

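RNA of 12 libraries of GC1 cells, 3 in each of 4 groups, was measured by sequencing of total RNA extracted with Trizol, per the labels' protocols. The authors deposited 1 table of FPKM values with 1 column per library, mapped to samples by column name. Per the submitters' processing notes, the tools were DESeq2, edgeR, StringTie, HISAT2 and cutadapt, with no role or version. The genome build was not given, read counts were not used here and depth is unknown, so no counting interval is given. All 2281 genes were marked significant in the authors' deposited table, with 1 deposited p-value and 1 deposited q-value per gene for a comparison the column names do not give, and a highest p of 0.05. All shares of called genes therefore describe a preselected set. The value 1e-04 FPKM, present 97 times, stands in place of 0. All 2281 gene IDs matched a symbol.

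Genes with FPKM of at least 1 in at least 3 of the 12 libraries were kept, 2063, and 218 were left out. Of those kept, 1941 reached 1 FPKM in all 12 libraries, and 24 passed through wild type or Setdb1 alone; all 24 were called, as that filter favours. At the edge of the filter, Akap17b (means 0.964 FPKM in the wild type and 1.28 with Setdb1) was inside and Oas2 (0.331 and 1.1 FPKM) outside. limma-trend (limma 3.58.1 in R 4.3.3) was fitted to log2(FPKM + 1) over 12 libraries with 1 mean per group, which share 1 estimate of the spread, with two-sided p adjusted by Benjamini-Hochberg over 2063 genes and a threshold of 0.05. The other steps used python 3.11.15. The fit was tested on simulated data. An exact permutation test of 3 against 3 libraries cannot go below p = 0.1.

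A gene was at the wild-type level when the 95% interval of Setdb1 minus wild type lay within 0.25 of 0. It had moved there when the control was off by at least 0.5 with adjusted p under 0.05 and Setdb1 minus control also passed. It was further than the control when both differences passed with 1 sign and the distance from wild type was larger. Counts that use several contrasts share libraries and are descriptions. Genes named were the 15 largest rises and falls without overlap, up to 12 moved and 12 further genes by size, up to 4 of each list, Ythdf2 and blood genes, 138 in all. All other genes named, such as Atf4, Mdm2, Krt6a, Mki67, Plk1, Kif23, Nr1d2 and Topbp1, were chosen after their values were seen. The members, lists and rules were chosen with earlier results of these data known. Promoters are from RefSeq. The table's term "apoptotic process" was not used: it labels the same 257 genes as its transcription factor term, and 2 of these hold that term in the table's own ontology column. Alternatives were another pseudocount, other filters, scalings and fits, a replicate block, a blood term and libraries left out. Some members of the lists are not reported here by name.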

Additional observations from a re-analysis of the deposited data

How the results depend on the processing

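The counts of genes higher and lower than wild type, 842 and 934, stayed within 1.5 times under every alternative run, at 687 to 897 and 746 to 1032, lowest with a filter of FPKM of 5 or more. The count further than the control, 899, ranged from 759 to 932. The counts at the wild-type level rest on the margin: with 0.2 in place of 0.25 they were 209 at that level (349 with 0.25) and 5 moved to it (11), and with 0.35 they were 691 and 23. Leaving out 1 library in turn gave 7 to 19 genes moved, 308 to 315 at the wild-type level, 820 to 827 higher, 884 to 902 lower and 836 to 893 further; the cause was not tested. With the unmodified knockout in place of the control 13 genes moved and 866 lay further. Quantile normalization turned Ezr to 0.075 and raised the share of higher among called genes from 47.4% to 51.8%, and 1671 of its 1730 calls were shared in direction with the 1776. A term for the libraries with blood transcripts gave 785 higher, 868 lower and 8 moved, and leaving these libraries out gave 744, 824 and 9, with 1 wild-type library. Among the genes named by rule, the term ended 11 calls, those of the 4 haemoglobin genes, S100a8, Gp9, Itga2b, Exosc6, Zbtb42, Dnmt3a and mt-Atp8. Leaving the libraries out kept all 4 haemoglobin calls, with a median of -1.13, and ended those of Cpeb1, Exosc6, Gp9, Itga2b, Ogg1, S100a8 and Zbtb42.

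Libraries of a group share numbers 1 to 3 across groups in the labels. The correlation of same-numbered deviations was -0.7 to 0.413 over 18 pairs, so the numbers do not pair the samples. With the number as a replicate block the counts were 846 higher, 924 lower, 338 at the wild-type level, 11 moved and 890 further.

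FPKM values carry no depth, so the precision of low values is unknown, and groups of 3 libraries limit the rest.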

Other observations

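Ontology terms carried by the table itself showed further groups, described by counts because the table was built on these terms. Of 103 tested genes of RNA splicing 54 were higher than wild type with Setdb1 and 31 lower, with a median of 0.21, while in the control 31 were higher and 41 lower. Of 128 genes of mRNA processing 64 were higher and 43 lower, beside 37 and 52 in the control. Of 80 focal adhesion genes 46 were higher and 23 lower, and of 58 Wnt signaling genes 34 and 21, with medians of 0.21 and 0.23. Of 81 autophagy genes 43 were higher and 23 lower, beside 48 and 14 in the control. These counts are to be read beside the shares over all tested genes. With Setdb1 40.8% were higher and 45.3% lower, and in the control 36.3% and 41.2%.

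Lower members were more frequent in other terms. Of 175 genes of regulation of transcription by RNA polymerase II 100 were lower and 42 higher, with a median of -0.20, and of 111 chromatin organization genes 63 were lower and 32 higher. Of 145 DNA repair genes 83 were lower and 44 higher, with a median of -0.19, and in the control 70 were lower and 39 higher. Over all 2063 genes 40.8% were higher and 45.3% lower with Setdb1, and 36.3% and 41.2% in the control. Genes can carry several terms, so these counts overlap.

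Nuclear genes of oxidative phosphorylation were higher in 10 of 15 tested members and lower in 2, with a median of 0.26 beside 0.16 in the control. Ndufa8, a complex I subunit gene, was higher by 0.73, and stood at 0.61 in the control and 0.59 in the unmodified knockout. Of 8 tested inflammation genes 6 were lower and 1 higher. Apart from Nos2, Csf2, a cytokine gene for granulocytes and macrophages, stood at -0.86 and the NF-kappaB subunit genes Nfkb2 and Relb at -0.43 and -0.40, while in the control these stood at -1.08, -0.05 and 0.14. Csf2 reached 1 FPKM in the wild-type libraries alone and entered the test only through them. Its value, and its place among the 6 lower inflammation genes, are therefore a description. Of 13 tested apoptosis genes 7 were higher and 3 lower. Bid, an activator of mitochondrial apoptosis, was lower (-0.87, beside -0.09 in the control).

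Of 15 tested genes of excision and mismatch repair 8 were lower (53.3%) and 6 higher (40.0%). Of 19 in the heat shock and immediate early list 10 (52.6%) and 5 (26.3%) were, and of 17 adhesion genes 8 (47.1%) and 6 (35.3%). Over all tested genes 45.3% were lower and 40.8% higher. The excision and adhesion shares lie close to these, so those lists as a whole show no result. Nid1, counted as a lower adhesion gene, reached 1 FPKM in the wild-type libraries alone, so its call is a description. Of 6 tested mitochondrially encoded genes 4 were higher and 1 lower, with a median of 0.41, but with quantile normalization 2 were higher and 2 lower and the median was 0.0. Of 4 tested platelet genes 2 were lower, with list sums of 8.09 FPKM in wild-type library 1, 25.0 FPKM in library 2 and 22.9 FPKM in library 3, and neither kept its call with the term for blood-carrying libraries.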
